A study of Mus musculus with 8 samples.

Results

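The let-7 3p arms are the mature miRNAs cut from the 3′ side of the let-7 hairpins, and 10 such names were described here among the 1624 mature miRNA names measured by small RNA sequencing. The names were selected by family and arm, with the read counts of the same 8 libraries already known, so their levels and tissue differences are given as a description of these libraries. Mesenchymal stromal cells (MSCs) were taken from pancreas (pMSCs, 4 libraries numbered 5 to 8) and from inguinal white adipose tissue (iwatMSCs, 4 libraries numbered 13 to 16) of untreated male C57BL/6J mice aged 8 weeks. Both kinds of cell were sorted as CD31-, CD45- and SCA1+ cells, cells of 3 to 5 mice were pooled, and the cultures were expanded for 4 days, so the libraries measure cultured progenitor-type stroma and not the tissue itself. Both tissues came from the same mice, but the labels do not tie a library to animals, and the libraries were treated as independent. The study asked whether, and how far, stromal cells of the pancreas differ from those of the inguinal fat.

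A let-7 gene is transcribed as a long primary RNA, trimmed to a hairpin in the nucleus and cut by Dicer into a duplex of a 5p and a 3p arm. Argonaute usually keeps the 5p arm of let-7 as the guide, and the 5p arms are known for repressing growth and stemness genes such as Hmga2, Lin28 and the Ras genes, and rise as cells mature. The 3p arm is the passenger strand, which is mostly degraded, although a retained 3p arm can pair with targets through its own seed (bases 2 to 8). The 5p arms of the family share a seed, whereas the seeds of the 3p arms vary, so the sequences are shown first because they decide which names can be told apart.

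All 10 names matched a RefSeq mature sequence (GRCm38.p6), and the seed is in capitals. These 4 names share the seed UAUACAA:
mmu-let-7a-1-3p: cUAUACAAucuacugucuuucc
mmu-let-7c-2-3p: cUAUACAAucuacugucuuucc
mmu-let-7f-1-3p: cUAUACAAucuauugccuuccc
mmu-let-7b-3p: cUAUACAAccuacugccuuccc

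The other 6 names each carry a seed of their own, which brings the number of distinct seeds to 7:
mmu-let-7d-3p: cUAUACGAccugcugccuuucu
mmu-let-7e-3p: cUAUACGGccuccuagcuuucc
mmu-let-7a-2-3p: cUGUACAGccuccuagcuuuc
mmu-let-7c-1-3p: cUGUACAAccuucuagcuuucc
mmu-let-7g-3p: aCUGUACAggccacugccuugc
mmu-let-7i-3p: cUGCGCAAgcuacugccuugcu

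The sequences of let-7a-1-3p and let-7c-2-3p were identical over all 22 bases. Counted from base 1 at the 5′ end of let-7a-1-3p, let-7f-1-3p differed from it by C13U, U16C and U20C, and let-7b-3p by U9C, U16C and U20C. The sequence of let-7f-1-3p is thus its own, and a sum over let-7a-1-3p and let-7c-2-3p is used below wherever the text speaks of summed identical names. The seed of let-7g-3p is shifted: from base 2 onwards its first 8 bases are those that open let-7a-2-3p.

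In GRCm38.p6, the hairpins of let-7d, let-7f-1 and let-7a-1 lie together on the minus strand of chromosome 13 in exons of the lincRNA 6720427I07Rik (GENCODE M21), with 1714 bases between the first pair and 261 between the second. The arm let-7d-3p is at chr13:48536024-48536045, let-7f-1-3p at chr13:48537833-48537854 and let-7a-1-3p at chr13:48538188-48538209. The hairpins of let-7c-2 and let-7b lie 621 bases apart in an exon of the noncoding gene Lncppara, with let-7c-2-3p at chr15:85706664-85706685 and let-7b-3p at chr15:85707379-85707400 on the plus strand. Introns hold let-7c-1-3p (chr16:77599717-77599738, Mir99ahg), let-7e-3p (chr17:17830411-17830432, Spaca6), let-7a-2-3p (chr9:41536777-41536797, the noncoding gene 3110039I08Rik) and let-7g-3p (chr9:106178902-106178923, Wdr82), all on the plus strand. The arm let-7i-3p is at chr10:122985642-122985663 on the minus strand, in an exon of the pseudogene D630033A02Rik. These positions are those of the reference, since the build used for the reads is not given in the sources used here.

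The libraries held 7789990 to 10538022 reads assigned to mature miRNAs. Library 7 of the pMSCs was the outlier that the study excluded, as found by matching deposited values to the group means given with it, and its deposited TPM value was 1 for 96.7% of the mature miRNAs detected, against 10.9% to 15.8% in the other libraries, while its read counts were ordinary. Read counts were therefore used. For the levels of the members in the mature rows, fits with 7 libraries (3 of pMSCs, 4 of iwatMSCs) are given first and fits with all 8 beside them. Levels are CPM (counts per 1000000 mature reads, scaled with TMM factors over the 8 libraries). Of the cell type lists, 5 epithelial miRNAs of the miR-200 family summed to 235 to 584 CPM in pMSCs and 12.3 to 20.05 CPM in iwatMSCs, and 4 acinar miRNAs (miR-216a, miR-216b, miR-217 and miR-802) to 10.7 to 56.9 CPM in pMSCs and 0.330 to 0.738 CPM in iwatMSCs. Every epithelial and acinar marker was detected in both tissues, with miR-141-3p and miR-217-5p each at 0 in 3 of the 4 iwatMSCs libraries and miR-802-5p at 0 in 2. The islet miRNA miR-375-3p was at 254 to 807 CPM in pMSCs and 3.53 to 22.5 CPM in iwatMSCs, while the second of the islet list, miR-7a-5p, overlapped between the tissues. The 6 stromal miRNAs summed to 58643 to 72464 CPM in pMSCs and 36828 to 47025 CPM in iwatMSCs, a sum led by miR-143-3p (44734 to 61443 CPM in pMSCs and 13467 to 17515 CPM in iwatMSCs). The means of 4 of the 6 were lower in pMSCs, among them miR-199a-3p, which shares its sequence with a name outside the list, and miR-214-3p was lower in every pMSCs library than in any iwatMSCs library. The summed endothelial, blood and muscle lists overlapped between the tissues. Of the blood list, the leukocyte miRNA miR-142a-3p was at 0 in all pMSCs libraries and at most 0.531 CPM in iwatMSCs. The other names of that list were read in pMSCs, miR-142a-5p only in library 6 (0.102 CPM). The level of miR-223-3p was 0.288 to 0.565 CPM in pMSCs, below every iwatMSCs library (0.773 CPM or more). That of miR-451a overlapped, at 29.3 to 77.8 CPM in pMSCs and 30.5 to 85.4 CPM in iwatMSCs. What part other cell types had in the tissue differences given below was not tested, and in bulk samples fewer cells of a type and less RNA per cell cannot be told apart.

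In the mature rows, the family's 3p arms were dominated by let-7d-3p. The 10 names together made up 0.403% to 0.788% of mature reads in pMSCs and 0.398% to 0.510% in iwatMSCs, and let-7d-3p supplied 85.5% to 90.1% of their reads in the 8 libraries. The arm let-7e-3p supplied 6.83% to 9.93%, and the summed identical names 1.57% to 3.35%. For comparison, the let-7 5p arms ranged from 4875 CPM (let-7g-5p in iwatMSCs library 16) to 129942 CPM (let-7c-5p in pMSCs library 5).

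**Figure D1:**
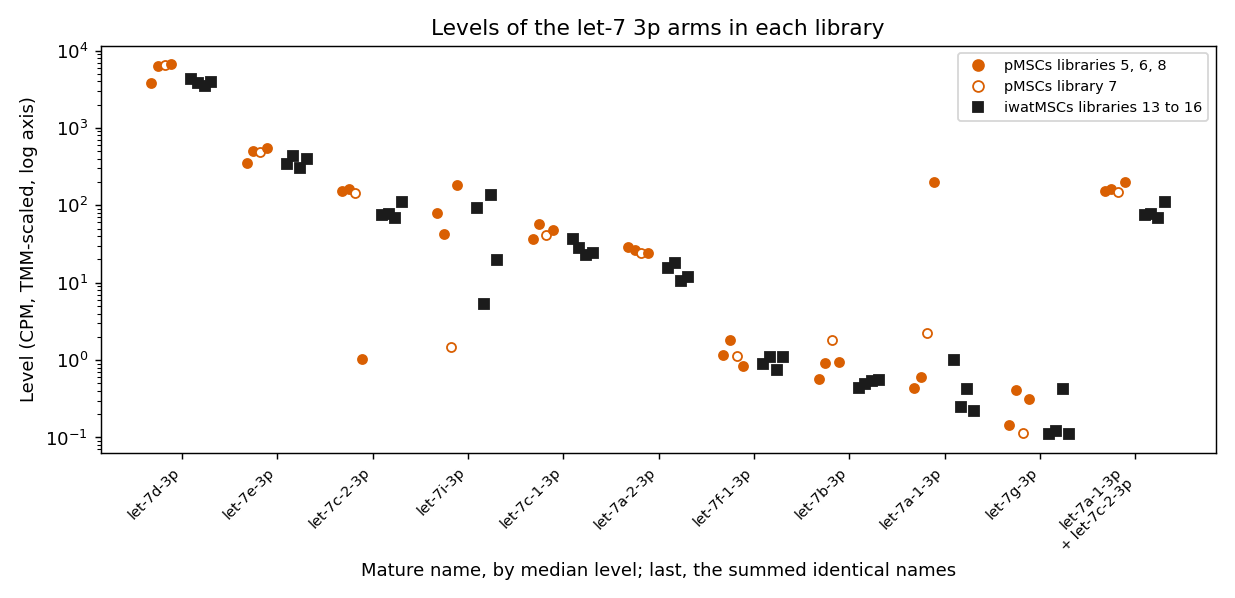
Level in CPM (log axis) of each let-7 3p arm in each library, with names ordered by their median and the summed identical names at the right; orange circles are pMSCs (open, library 7), black squares iwatMSCs. The levels spanned from let-7d-3p, at 3508 CPM or more in every library, down to let-7g-3p, at 0.424 CPM or less.

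The order of the levels in the mature rows, from high to low, was let-7d-3p, let-7e-3p, the summed identical names, let-7c-1-3p, let-7a-2-3p, let-7f-1-3p, let-7b-3p and let-7g-3p. The ranges over the 8 libraries did not overlap between let-7d-3p, let-7e-3p, the summed identical names and let-7c-1-3p. They did overlap between let-7c-1-3p and let-7a-2-3p and between let-7f-1-3p and let-7b-3p. The level of let-7i-3p spread across the middle of this order and has no fixed place in it.

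The most abundant member, let-7d-3p, was read at 3864, 6315, 6416 and 6618 CPM in pMSCs libraries 5, 6, 7 and 8, and at 4283, 3758, 3508 and 3874 CPM in iwatMSCs libraries 13 to 16. Libraries 6 to 8 of the pMSCs were above all iwatMSCs libraries, while library 5 lay among them. It averaged 5599 ± 1510 CPM in pMSCs (SD, n = 3) and 3856 ± 323 CPM in iwatMSCs (SD, n = 4), a log2 fold change of 0.50 ± 0.23 (approximate SE, 7 libraries) with an adjusted p of 0.339 in edgeR. The fit over 8 libraries gave 0.59 and an adjusted p of 0.120.

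The next, let-7e-3p, shares its hairpin cluster with miR-125a and miR-99b. It was read at 356, 500, 486 and 557 CPM in pMSCs and at 337, 429, 306 and 397 CPM in iwatMSCs. The tissues overlapped, with a log2 fold change of 0.31 ± 0.24 (7 libraries, adjusted p = 0.526, edgeR). With 8 libraries it was 0.37 (adjusted p = 0.322, edgeR).

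The identical names let-7a-1-3p and let-7c-2-3p changed places between libraries. The name let-7c-2-3p held 1048, 1600, 1286 and 10 reads in pMSCs libraries 5 to 8, against 678, 630, 641 and 1012 reads in iwatMSCs. The name let-7a-1-3p held 3, 6, 20 and 1933 reads in pMSCs and 9, 2, 4 and 2 reads in iwatMSCs. The same 22 bases were thus counted under let-7c-2-3p in 7 libraries and under let-7a-1-3p in pMSCs library 8, with 98.5% to 99.8% of the reads under the leading name in each. Among the 1167 mature names with a RefSeq sequence, 3 sets of identical sequence were found: this pair, a set of miR-465 names with at most 9 reads, and the stromal miRNAs miR-199a-3p and miR-199b-3p. The miR-199 names changed places as well: 81133 and 85531 reads stood under miR-199a-3p in iwatMSCs libraries 13 and 14, where miR-199b-3p led in the other 6 libraries.

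**Figure D2:**
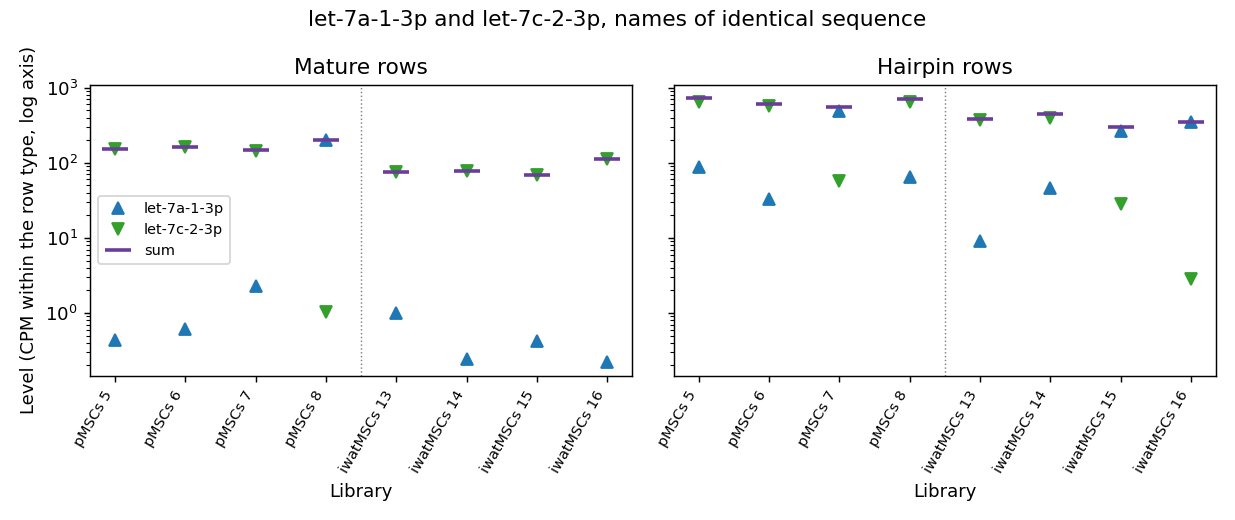
Level in CPM (log axis) of let-7a-1-3p, let-7c-2-3p and their sum in each library, pMSCs left of the dotted line and iwatMSCs right of it, from the rows of type mature (left panel) and of type hairpin (right panel). One name or the other carries most reads of a library, and the sums of the pMSCs libraries lie above those of the iwatMSCs libraries in both panels.

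Taken singly, the names gave a log2 fold change of 7.13 ± 2.05 for let-7a-1-3p (adjusted p = 0.119) and 0.26 ± 1.05 for let-7c-2-3p (adjusted p = 0.924) with 7 libraries in edgeR, and the first rests on library 8 alone. Without library 8 it was 0.14. In the fit over all 8 libraries the values were 6.71 for let-7a-1-3p (adjusted p = 0.119, edgeR) and 0.47 for let-7c-2-3p (adjusted p = 0.819, edgeR). The value of let-7c-2-3p was -0.12 without pMSCs library 5 and -0.21 without library 6. Summed, they were read at 151, 163, 148 and 201 CPM in pMSCs and at 75.9, 77.7, 68.4 and 111 CPM in iwatMSCs. All 4 pMSCs libraries were above all 4 iwatMSCs libraries. The sum averaged 172 ± 26.2 CPM in pMSCs (SD, n = 3) and 83.4 ± 19.1 CPM in iwatMSCs (SD, n = 4), a log2 fold change of 0.999 ± 0.24 with an adjusted p of 0.0578 in edgeR, which missed the threshold of 0.05. The fit over 8 libraries gave 0.99 ± 0.20 and an adjusted p of 0.0163. Adding let-7f-1-3p to the sum gave 0.99 ± 0.24 (adjusted p = 0.0577) with 7 libraries and 0.96 ± 0.22 (adjusted p = 0.0294) with 8. Without iwatMSCs library 16 the 7-library value of let-7a-1-3p and let-7c-2-3p summed was 1.22 (adjusted p = 0.0179, edgeR). With any other library left out it was 0.91 to 1.09 and missed the threshold (adjusted p from 0.0601 to 0.141, edgeR). The sum was past the threshold in DESeq2 as well (log2 fold change 1.04, adjusted p = 0.000131).

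The arm let-7a-2-3p, from the cluster that also encodes miR-100 and miR-125b-1, was read at 28.8, 26.7, 24.3 and 24.2 CPM in pMSCs and at 15.7, 17.8, 10.4 and 11.8 CPM in iwatMSCs. The tissues did not overlap. It averaged 26.6 ± 2.33 CPM in pMSCs (SD, n = 3) and 13.9 ± 3.44 CPM in iwatMSCs (SD, n = 4), with a log2 fold change of 0.88 ± 0.27 and an adjusted p of 0.155 with 7 libraries, and of 0.90 ± 0.22 and 0.0464 with 8 (edgeR). In edgeR the call thus depends on library 7, while DESeq2 called it without that library (log2 fold change 0.93, adjusted p = 0.0031, 7 libraries).

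The arm let-7c-1-3p, encoded beside miR-99a, was read at 36.4, 57.0, 40.9 and 47.4 CPM in pMSCs and at 36.9, 28.04, 22.7 and 24.0 CPM in iwatMSCs. Library 5 of the pMSCs was just below library 13 of the iwatMSCs, and the other pMSCs libraries were above all of them. The log2 fold change was 0.70 ± 0.27 (adjusted p = 0.246, 7 libraries, edgeR), and 0.70 with 8 libraries (adjusted p = 0.125, edgeR).

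In the mature rows, let-7i-3p varied far more between libraries than between tissues. It was read at 79.8, 42.7, 1.47 and 185 CPM in pMSCs, which is 554, 420, 13 and 1784 reads, and at 92.8, 5.29, 135 and 19.5 CPM in iwatMSCs, which is 840, 43, 1270 and 177 reads. High and low libraries occurred in both tissues. The other arm, let-7i-5p, was at 51358 to 73024 CPM in pMSCs and 37518 to 46558 CPM in iwatMSCs, so that its tissues did not overlap. The SD of log2(CPM + 1) within tissues was 2.40 for let-7i-3p, and 9 of 387 names with at least 10 CPM had a larger one. It was 0.202 for let-7i-5p, against a median of 0.306 over these names. The log2 fold change of let-7i-3p was 0.73 ± 0.94 (adjusted p = 0.726, 7 libraries, edgeR) and 0.29 with 8 libraries (adjusted p = 0.905, edgeR). With 7 libraries it was -0.042 when pMSCs library 8 was left out, a spread within which no tissue difference of this size was detectable. In the rows of type hairpin, described below, the same name varied less, from 79.5 to 210 CPM in pMSCs and from 56.0 to 155 CPM in iwatMSCs, and pMSCs library 7 and iwatMSCs library 14, with 13 and 43 mature reads, held 748 and 523 reads there.

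**Figure D3:**
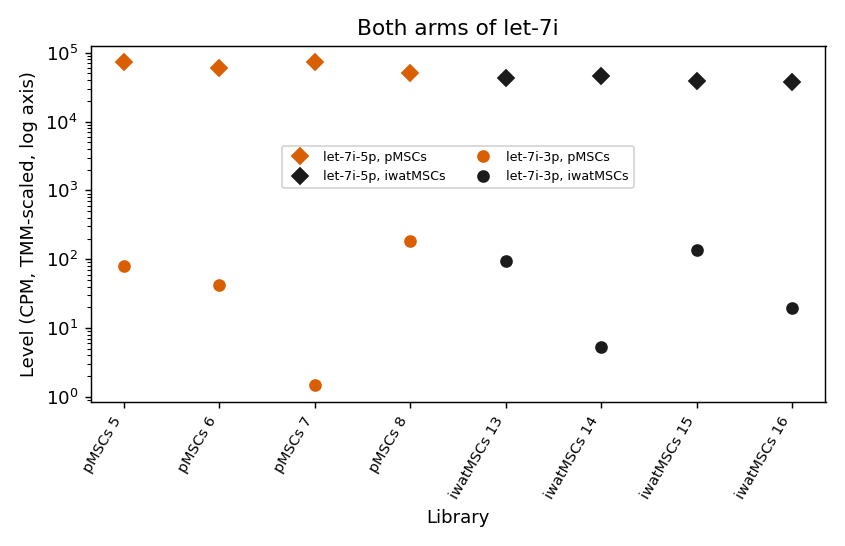
Level in CPM (log axis) of the arms of let-7i in each library, let-7i-5p as diamonds and let-7i-3p as circles, pMSCs in orange at the left and iwatMSCs in black at the right. The 3p arm ranged from 1.47 to 185 CPM, while the 5p arm was at 51358 to 73024 CPM in pMSCs and 37518 to 46558 CPM in iwatMSCs.

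The remaining 3 members had few reads in the mature rows. The arm let-7b-3p had 4, 9, 16 and 9 reads in pMSCs and 4, 4, 5 and 5 reads in iwatMSCs, which placed every pMSCs library above every iwatMSCs library in CPM. The arm let-7f-1-3p had 8, 18, 10 and 8 reads in pMSCs and 8, 9, 7 and 10 reads in iwatMSCs. The arm let-7g-3p had 1, 4, 1 and 3 reads in pMSCs and 1, 1, 4 and 1 reads in iwatMSCs. Their adjusted p-values ranged from 0.551 for let-7b-3p to 0.771 for let-7g-3p with 7 libraries in edgeR, and from 0.294 to 0.844 with 8. The log2 fold change of let-7b-3p was 0.64 with 7 libraries and 1.05 with 8. A difference was not detectable with this number of mature reads. In the hairpin rows let-7b-3p held 917 to 2416 reads and let-7f-1-3p 1441 to 4990, but let-7g-3p at most 21.

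Across all 1244 mature names tested with 7 libraries in edgeR, 2.65% were called higher and 2.73% lower in pMSCs, and of the 10 let-7 3p arms 0 were called higher and 0 lower. An unadjusted p under 0.05 was found for 3 of them (let-7a-2-3p, let-7c-1-3p and let-7a-1-3p, the last resting on the name change in library 8), beside 15.8% of all names tested. DESeq2 called 2 of the 10 higher (let-7a-2-3p and let-7c-1-3p) and 0 lower, beside 4.58% and 4.5% of all names, and gave no adjusted p for let-7a-1-3p and let-7g-3p. With all 8 libraries, edgeR called 1 of the 10 higher (let-7a-2-3p) and 0 lower, beside 3.46% and 2.98% of 1241 names. The fitted log2 fold change was positive for all 10, beside 46.1% of all names tested, with a median of 0.59 beside -0.08 over all names, and the members are reads of related RNA in the same libraries. Every pMSCs library was above every iwatMSCs library for 2 of the 10 names, let-7a-2-3p and let-7b-3p, beside 6.93% of all names tested.

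**Figure D4:**
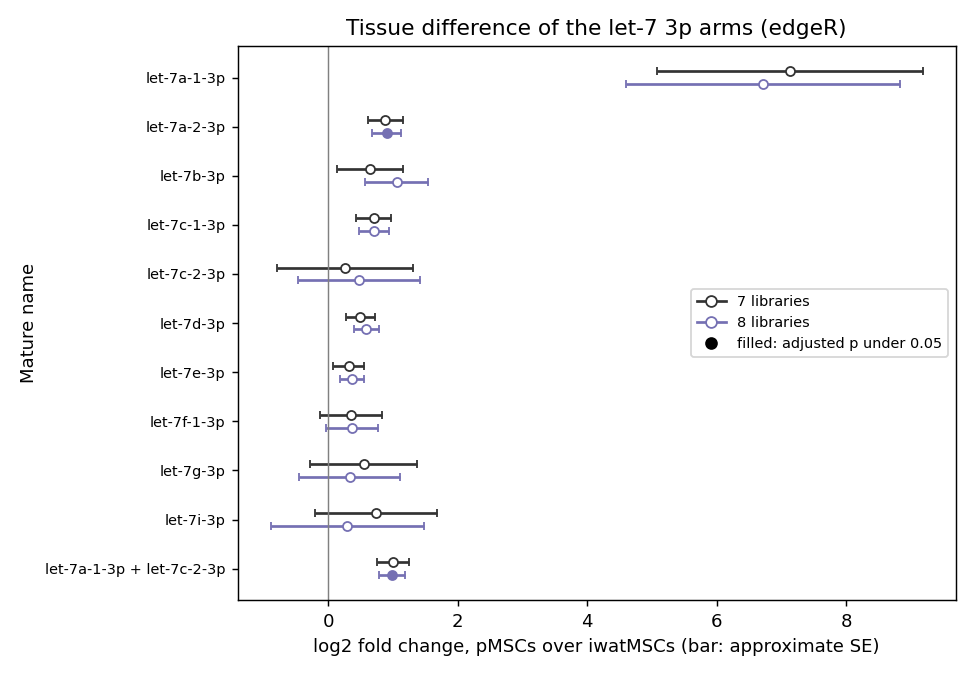
Log2 fold change of pMSCs over iwatMSCs for each let-7 3p arm and for the summed identical names, with approximate SE bars, in edgeR with 7 libraries (grey) and 8 libraries (purple); filled circles have an adjusted p under 0.05. All values are above 0, and those of let-7a-2-3p and of the sum are past the threshold with 8 libraries and not with 7.

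In the mature rows the 3p arm was the minor arm of every let-7 pair. Over the 10 members and the let-7 5p arms, 3p reads made up 1.05%, 2.05%, 1.79% and 2.57% of all reads in pMSCs, and 1.66%, 1.35%, 1.57% and 1.85% in iwatMSCs. Each of these shares has a 95% Wilson interval, which covers counting error only and ran, in pMSCs library 5, from 1.04% to 1.06%. The tissues overlapped, with the highest share in pMSCs library 8 and the lowest in pMSCs library 5.

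The pairs differed widely. The 3p share was 11.6% to 22.7% for let-7d in pMSCs and 16.3% to 17.2% in iwatMSCs, and 2.51% to 6.30% for let-7e in pMSCs and 2.53% to 4.16% in iwatMSCs. For let-7a and let-7c merged it was 0.115% to 0.214% in pMSCs and 0.0841% to 0.144% in iwatMSCs. For let-7f, whose 5p arm is the product of let-7f-1 and let-7f-2 together, it was at most 0.0110% in pMSCs and 0.00863% in iwatMSCs. Of the 199 tested pairs of any miRNA, 1 had a lower median share. Only pairs whose arms both had a mean of at least 10 reads in a tissue were tested, which left out let-7b and let-7g. Their medians were lower than that of let-7f, at 0.00160% and 0.00319% in pMSCs and 0.00102% and 0.00204% in iwatMSCs. The low share of let-7f is that of the mature rows: in the hairpin rows its 3p share was 3.26% to 5.47% in pMSCs and 2.26% to 3.11% in iwatMSCs. The median share over the 199 tested pairs was 29.7%, and 89 of them were below let-7d.

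**Figure D5:**
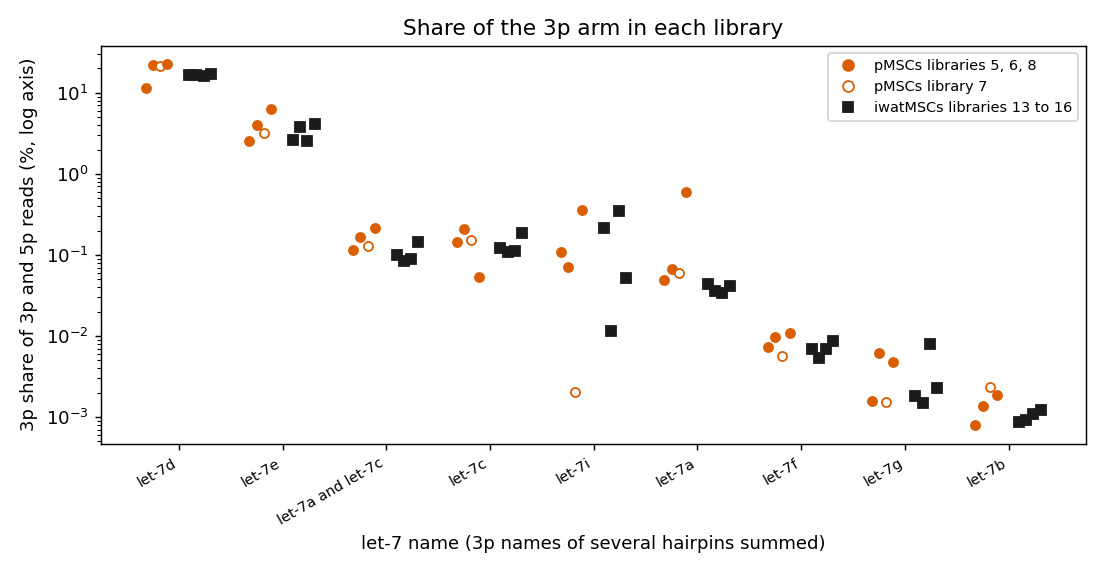
Share of 3p reads among the 3p and 5p reads of each let-7 name, in percent on a log axis, by library; orange circles are pMSCs (open, library 7), black squares iwatMSCs. The share of let-7d, at 11.6% to 22.7%, stands above all others, and let-7i and let-7a contain the libraries that lie apart from the rest.

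The arm ratio, log2 of 3p over 5p reads with 0.5 added to each, needs no scaling between libraries and was tested in limma over all pairs in which both arms had a mean of at least 10 reads in a tissue. With 7 libraries 0.503% of the 199 pairs were called higher in pMSCs and 0.503% lower, and none of the 6 let-7 pairs tested (let-7a, c, d, e, f and i) was. Of the 6 pairs, 0 had an unadjusted p under 0.05, the lowest being 0.0757 for let-7a, and no other tool was run on the ratios. The pairs of let-7b and let-7g were not tested, since their 3p arms had too few reads. The difference in log2 ratio was 0.16 ± 0.34 for let-7d (adjusted p = 0.897, limma), which was -0.019 without pMSCs library 6 and -0.047 without library 8. It was 0.65 ± 0.32 for let-7a and let-7c merged (adjusted p = 0.526, limma). For let-7i it was 0.78 ± 1.22 with 7 libraries and -0.74 ± 1.68 with 8, and -0.17 with 7 libraries when iwatMSCs library 14 was left out.

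There were 9 5p names (8 of let-7, and miR-98-5p, which shares the let-7 seed). With 7 libraries in edgeR 0 of the 9 were called in either direction, beside 2.65% of all names called higher and 2.73% lower. An unadjusted p under 0.05 was found for 1 of the 9 with 7 libraries and 4 with 8 in edgeR, and for 3 in DESeq2. Over all names these counts were 197 of 1244, 227 of 1241 and 188 of 1244. The median log2 fold change in edgeR was 0.23 with 7 libraries and 0.28 with 8. Every pMSCs library was above every iwatMSCs library for let-7d-5p and let-7i-5p, beside 6.93% of all names tested. DESeq2 called 1 of the 9 higher (let-7i-5p) and 0 lower, beside 4.58% and 4.5% of all names. With 8 libraries edgeR called let-7i-5p higher (log2 fold change 0.64 ± 0.16, adjusted p = 0.0433) and 0 lower, beside 3.46% and 2.98% of all names. Of the 11 arms encoded in the same clusters (miR-100, miR-99a, miR-99b, miR-125a and miR-125b), 0 were called in edgeR with 7 or 8 libraries and 0 in DESeq2, beside the same shares of all names. In edgeR 1 of the 11 had an unadjusted p under 0.05 with 7 libraries and 0 with 8, and the median log2 fold change was 0.02 with 7. The widest spread among them was that of miR-125b-5p, at 64204 CPM in iwatMSCs library 15 and 6256 to 12658 CPM in the other libraries. Of the 3p names of the family outside the 10, let-7f-2-3p had 4 to 16 reads in pMSCs and 4 to 7 reads in iwatMSCs, and miR-98-3p 27 to 76 reads in pMSCs and 30 to 102 reads in iwatMSCs, and neither was called from its mature row in edgeR with 7 or 8 libraries or in DESeq2. The hairpin row of let-7f-2-3p was called higher in pMSCs (log2 fold change 1.02, adjusted p = 0.0117, edgeR, 7 libraries, and 0.92, adjusted p = 0.0167, with 8).

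The table also holds rows of type hairpin under the same arm names, and how reads were divided between the row types is not given in the sources used here. In these rows let-7d-3p supplied 44.9% to 56.5% of the reads of the 10 names. The summed identical names came second in every library, at 2955 to 7466 reads. The arm let-7f-1-3p supplied 7.16% to 13.0%, let-7e-3p 7.51% to 10.6% and let-7b-3p 4.07% to 7.13%. The arm let-7f-1-3p was read at 403, 436, 286 and 399 CPM in pMSCs and at 190, 223, 145 and 156 CPM in iwatMSCs, although its mature row held at most 18 reads. The tissues did not overlap, and the log2 fold change was 1.20 ± 0.20 with an adjusted p of 0.0035 (edgeR, 7 libraries). The fitted log2 fold change was positive for 9 of the 10 members with 7 libraries, beside 49.1% of all hairpin rows tested. The exception was let-7a-1-3p (-1.47), one of the identical names. The median was 0.68 over the members and -0.02 over all hairpin rows. Of the 10 members, let-7f-1-3p was the 1 called higher, with 0 lower, beside 3.57% and 2.66% of 1092 hairpin rows. The identical names changed places here in other libraries than in the mature rows. The name let-7a-1-3p led in pMSCs library 7 (4688 reads against 542). It also led in iwatMSCs libraries 15 (2673 against 282) and 16 (3478 against 28). In pMSCs library 8, let-7c-2-3p led (6784 against 682). The sum of the identical names was 728, 601, 556 and 713 CPM in pMSCs and 383, 443, 298 and 355 CPM in iwatMSCs. Its log2 fold change was 0.86 ± 0.18 (adjusted p = 0.0159, edgeR, 7 libraries). With 8 libraries let-7a-2-3p, let-7d-3p and let-7f-1-3p were called higher in these rows and 0 members lower, beside 4.57% and 3.17% of 1072 rows.

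Over the 8 libraries, the names outside the family whose log2(CPM + 1) was most like that of the 10 members summed were miR-1247-5p (Pearson r = 0.943), miR-328-3p (r = 0.856) and miR-92b-3p (r = 0.837), among 173 names with a mean of at least 100 CPM. The summed members were read at 4518, 7108, 7120 and 7635 CPM in pMSCs and at 4843, 4318, 4052 and 4440 CPM in iwatMSCs. The closest of them, miR-1247-5p, was read at 168, 387, 647 and 472 CPM in pMSCs and at 91.6, 56.3, 43.9 and 63.0 CPM in iwatMSCs. These likenesses describe 8 points that share tissue and depth, and let-7d-3p supplies most of the sum.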

How the data were processed

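Small RNA of 4 pMSCs and 4 iwatMSCs libraries with unique molecular identifiers was sequenced on a BGISEQ instrument, and the read counts per small RNA name were made and deposited by the authors through their sequencing provider, with Bowtie2 as the named aligner. Its version, the genome build and the miRBase release are not given in the sources used here. The score called TPM in the deposited table was used only in an alternative. The sorted cells came from pools of mice, and nothing states that libraries were separate cultures beyond their numbers, so p-values measure the spread between these libraries. The members and lists were chosen with earlier results of these data known.

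Names averaging 1 read or more in either tissue entered the quasi-likelihood test of edgeR 4.0.16 (TMM scaling, two-sided) in R 4.3.3, with Benjamini-Hochberg adjustment over all names and a threshold of 0.05. The SE was approximated by dividing the log2 fold change by the root of its F. Arm ratios were tested with limma 3.58.1. Alternatives were all 8 libraries, each library left out, other scalings, filters and pseudocounts, DESeq2 1.42.0, limma on the deposited score in log2, and, chosen after seeing the data, the hairpin rows and let-7a and let-7c merged. The fits were tested on simulated data. The text names all 10 members, the other 3p and 5p arms of the family, the cluster partners, and the 3 names most like the members. Sequences are those of RefSeq (GRCm38.p6), and hairpin hosts those of GENCODE M21. Figures were drawn with matplotlib 3.10.9 in Python 3.11.15. Intervals cover counting error only. All small RNA reads ranged from 20793619 to 25824261 per library, of which mature miRNAs took 35.8% to 41.0%.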

Additional observations from a re-analysis of the deposited data

Results flagged for a closer look

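In 38 groups of 4 libraries (the levels of the 10 members and of their sums, and the 3p share of the let-7 pairs, in each tissue), 7 values lay apart from the other 3 of their group by more than Dixon's 95% criterion, which chance meets in about 1 of 20 groups. Of these, 3 come from the same change of name: in pMSCs library 8, let-7a-1-3p was at 200.4 CPM, let-7c-2-3p at 1.04 CPM, and the 3p share of let-7a at 0.603%. Library 5 of the pMSCs was low for let-7d-3p at 3864 CPM and for the 3p share of let-7d at 11.6%. The other values were let-7g-3p at 0.424 CPM (4 reads) in iwatMSCs library 15 and the 3p share of let-7c at 0.184% in iwatMSCs library 16.

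A row of the table outside the mature names, annotated by Rfam as the let-7 precursor, held 27832, 32999, 31422 and 23139 reads in pMSCs, against 16337, 12820, 4413 and 13234 reads in iwatMSCs. This is 960 to 1396 per 1000000 small RNA reads in pMSCs and 205 to 713 in iwatMSCs. The tissues did not overlap, and the difference was not tested.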

How the results depend on the processing

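The count of members called lower in pMSCs was 0 under each of 19 alternatives, and the count of let-7 pairs with a changed arm ratio was 0 under each of 14. The count called higher was 0 under 14 of 19, 1 with all 8 libraries (let-7a-2-3p), with known miRNAs only (let-7a-1-3p, which rests on 1 library) and in the hairpin rows (let-7f-1-3p), 2 in DESeq2 and 3 in the hairpin rows with 8 libraries. With a library left out both counts stayed 0. The share of all names called higher also rose, from 2.65% with 7 libraries in edgeR to 3.46% with 8 and 4.58% in DESeq2. It was 3.57% of the hairpin rows with 7 libraries and 4.57% with 8. For the other alternatives, known miRNAs only among them, the share of all names called was not counted.

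The sum of let-7a-1-3p and let-7c-2-3p stayed positive under each alternative. It passed the threshold with 8 libraries (0.99), DESeq2 size factors (1.04), the DESeq2 test (1.04), no filter (1.04), a mean of at least 10 reads (1.03), known miRNAs only (1.04) and hairpin rows (0.86, and 0.74 with 8 libraries), and with a library left out it ranged from 0.91 to 1.22 (adjusted p from 0.0179, without iwatMSCs library 16, to 0.141). With let-7f-1-3p the values were 0.96 (8 libraries), 1.04, 1.04, 1.03, 1.03 and 1.03 in the same order up to known miRNAs only, and 0.91 to 1.21 with a library left out. The sum missed the threshold under scaling to totals without TMM and on the deposited score.

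Directions that reversed belong to members and pairs not called in edgeR with the 7 libraries, although let-7a-1-3p was called with known miRNAs only (adjusted p = 0.0465). The log2 fold change of let-7c-2-3p was -1.46 and -1.32 on the deposited score with pseudocounts of 1 and 5, and -0.21 to 0.92 with a library left out. That of let-7a-1-3p was -1.47 in the hairpin rows, and 0.14 to 7.79 with a library left out. That of let-7i-3p was -0.042 to 1.39 with a library left out. The arm ratio of let-7i was -0.74 with 8 libraries (-0.74 too in the fit with let-7a and let-7c merged), and with a library left out the ratios ranged from -0.17 to 1.48 for let-7i, -0.56 to 0.42 for let-7c, -0.047 to 0.53 for let-7d and -0.00442 to 0.687 for let-7e. The cause was not tested. No paired analysis was possible because the labels do not tie a library to animals.

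The mature rows of let-7b-3p, let-7f-1-3p and let-7g-3p held at most 18 reads, which limits what their tests can detect.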
